A study of Pyrus pyrifolia with 12 samples.

Results

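The genes described here encode the first 3 enzymes of the phenylpropanoid pathway in the skin of Asian pear (Pyrus pyrifolia). They were chosen by the recommended name of their Swiss-Prot best hit, which had to begin with phenylalanine ammonia-lyase (PAL), trans-cinnamate 4-monooxygenase (C4H) or 4-coumarate--CoA ligase (4CL). This gave 15 of the 43732 genes in the table, of which 3 were PAL, 6 were C4H and 6 were 4CL. Another 16 genes named 4-coumarate--CoA ligase-like were not counted as 4CL. Skin RNA of 4 varieties was sequenced in 12 libraries, 3 for each variety. Mature, untreated fruit was taken 120 days past full bloom in Akibae, 135 days in Nijisseiki and 105 days in CuiYu and SuCui NO.1 alike. Days past full bloom and variety cannot be told apart except between SuCui NO.1 and CuiYu. The series asks how russet, a corky brown skin, forms. The labels used here do not say which varieties are russet, and the fifth variety of the series was not analysed here.

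PAL removes ammonia from the amino acid phenylalanine and gives cinnamic acid. C4H, a cytochrome P450 of the endoplasmic reticulum, adds a hydroxyl group to make p-coumaric acid, and 4CL joins that acid to coenzyme A. The product, p-coumaroyl-CoA, is the shared precursor of lignin, of the phenolic part of suberin and of flavonoids, so these enzymes stand upstream of the polymers of corky skin as well as of skin pigments and tannins.

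Each library held 11981445 to 15136559 counted reads, and 26307 genes had enough reads to be tested. Of the 15 members, 13 were tested. The PAL gene16842 had 0 reads in the 12 libraries, which allows at most 0.0728 to 0.0772 CPM (counts scaled to library size) in a variety for a floor of 3 reads over its 3 libraries. The C4H gene778 had 5 reads in all. Floors cover counting error only, and p values measure the spread between these libraries. Levels of 1 gene are given in CPM, and levels of different genes are set side by side only in CPM per kb of gene model.

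The tissue label was checked with cell type markers. The summed level of 25 genes named for epidermal cuticle makers and epidermal homeobox factors was 31.2 to 36.0 CPM in Akibae, 58.96 to 275.9 in Nijisseiki skin, 217.1 to 379.7 in SuCui NO.1 skin and 913.8 to 976.5 in CuiYu. In Akibae 11 of the 25 had no read, among them the 3 genes named PROTODERMAL FACTOR 2. ANTHOCYANINLESS 2, an epidermal homeobox factor, averaged 11.0 CPM for SuCui NO.1, 15.4 for Nijisseiki, 15.7 for Akibae and 23.5 for CuiYu. The 3 genes named ECERIFERUM 3 had a mean sum of 0.940, 0.850, 0.232 and 0.244 CPM in the same order. The largest parts of the CuiYu sum were 3-ketoacyl-CoA synthase 10 (479.5 CPM) and cytochrome P450 86A (283.0 CPM). The 30 markers of lignified cells summed to 2.30 to 8.16 CPM over all libraries, and 15 to 17 of them had no read in a given variety. Only 3 of the 30 were tested. Of these, edgeR called IRREGULAR XYLEM 15 higher in Nijisseiki than in CuiYu (57 reads against 1, adjusted p = 0.0474), as were 8.03% of all genes. No other pair gave an edgeR call among the 3. The 36 genes of green cells (light-harvesting proteins and Rubisco small subunits) summed to 726.5 to 822 CPM in Akibae, 752.4 to 2005 in Nijisseiki skin, 904.9 to 2169 in SuCui NO.1 skin and 776.8 to 1055 in CuiYu. That sum joins parts that differed. Light-harvesting genes had a mean sum of 814.3 CPM for SuCui NO.1, 413.1 for CuiYu, 373.3 for Nijisseiki and 141.9 for Akibae. For Rubisco genes it was 714.1, 518.4, 890.3 and 637.0 CPM in the same order. Of the 27 green-cell genes tested, edgeR called 13 lower in Akibae than in SuCui NO.1 (48.1%, against 8.66% of all genes tested). It called 8 lower than in CuiYu (29.6%, against 8.09%). In both pairs 0 were higher, against 7.62% and 6.99% of all genes. Of the 15 epidermal genes tested, 11 were lower in Akibae than in SuCui NO.1 and 11 lower than in CuiYu (73.3% each). Against Nijisseiki, 8 of these 15 were lower in Akibae (53.3%, against 1.57% of all genes). In these 3 pairs 0 epidermal genes were called higher in Akibae. The 5 phloem markers summed to 4.93 to 41.4 CPM in Akibae, 0.0723 to 1.48 in Nijisseiki skin, 1.41 to 10.4 in SuCui NO.1 skin and 0.348 to 0.677 in CuiYu. The epidermal sum was highest in CuiYu, the variety in which most PAL, C4H and 4CL copies had their lowest mean. The part of these markers in the results was not tested. In skin tissue, fewer cells of a type and less RNA per cell cannot be told apart.

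Across the varieties, CuiYu had the lowest mean level of the main PAL gene, both main C4H genes and 5 of the 6 4CL genes. It had the highest mean level of a minor C4H copy, gene777. Not all of these differences passed a test. An F test over the 4 varieties in edgeR called 4 of the 13 tested members at an adjusted p under 0.05 (30.8%), against 28.3% of all genes tested, so the share of members called was near the background. DESeq2 called 8 members and 42.3% of all genes. The called members were PAL gene3545 (adjusted p = 0.0109), C4H gene22826 (0.0318), C4H gene777 (0.0137) and 4CL gene28008 (0.00264). The calls of gene3545 and gene28008 held without any 1 library. That of gene22826 ended without Akibae replicate 2 (0.0541), Nijisseiki replicate 1 (0.0642) or 3 (0.0966), or CuiYu replicate 2 (0.0875) or 3 (0.0858), and that of gene777 without CuiYu replicate 1 (0.0535) or 2 (0.0538). Some C4H and 4CL genes short of the threshold, chosen for this after their values were seen, passed when 1 library was left out. They were gene780 without Akibae replicate 3 (0.0424), gene4604 (0.0198) and gene6533 (0.0459) without Nijisseiki replicate 1, gene20027 without Nijisseiki replicate 1 (0.0214) or SuCui NO.1 replicate 1 (0.0316) or 3 (0.0357), and gene12072 without SuCui NO.1 replicate 2 (0.0337) or 3 (0.0469). The C4H gene779, with an adjusted p of 0.678, also passed without SuCui NO.1 replicate 2 (0.039).

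**Figure D1:**
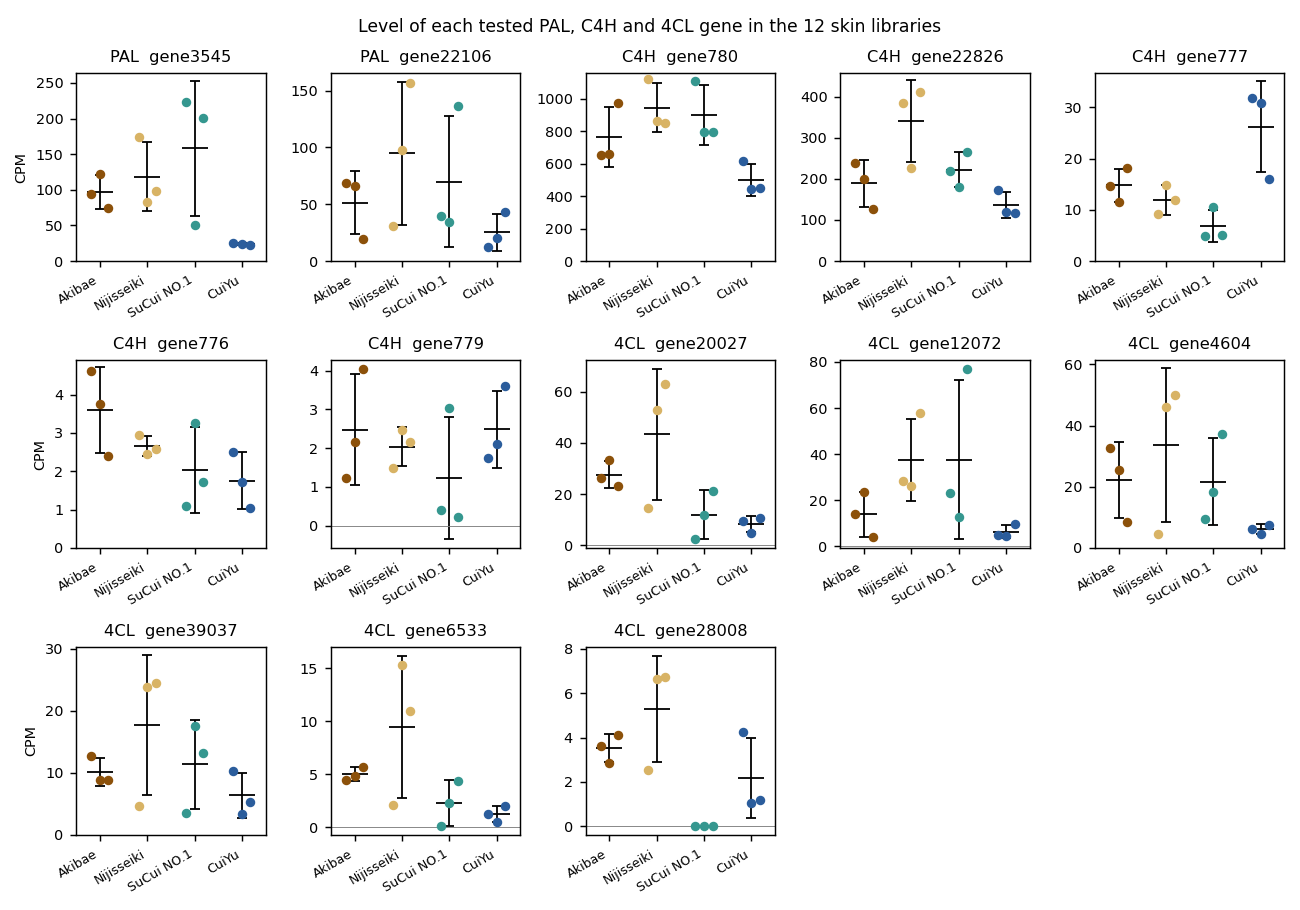
Level in CPM (vertical axis, linear) of the 13 tested PAL, C4H and 4CL genes in the 4 varieties, where points are the 3 libraries of a variety and the black marks are mean ± SD. CuiYu points of gene3545 lie between 22.8 and 25.1 CPM, under all 9 other libraries, and the 3 SuCui NO.1 points of gene28008 lie at 0.

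In pairs of varieties the members that passed were mostly lower in CuiYu. Nijisseiki was higher than CuiYu in 5 of 13 members (38.5%, against 8.03% of all genes tested) and lower in 0, against 7.37% of all genes; at an unadjusted p under 0.05 edgeR had 1 lower, and DESeq2 called 1 lower (11.3% of all genes). SuCui NO.1 was taken as many days past full bloom as CuiYu. It was higher than CuiYu in 3 members (23.1%, against 8.86% of all genes) and lower in 2 (15.4%, against 8.58%). Akibae was higher than CuiYu in 1 member (7.69%, against 6.99%) and lower in 0 (8.09% of all genes were lower), where edgeR had 1 lower at an unadjusted p under 0.05 and DESeq2 called 0 (11.6% of all genes). Akibae and Nijisseiki were each higher than SuCui NO.1 in 1 member, gene28008, against 7.62% and 6.68% of all genes, and DESeq2 called 2 in each, against 10.8% and 10.2%. Both were lower than SuCui NO.1 in 0 members by edgeR, by DESeq2 and at an unadjusted p under 0.05 in edgeR, against 8.66% and 5.76% of all genes by edgeR and 12.5% and 9.25% by DESeq2. Akibae against Nijisseiki gave 0 higher and 0 lower by edgeR and by DESeq2, against 0.962% and 1.57% of all genes by edgeR (2.53% either way) and 2.76% and 3.55% by DESeq2, and 1 member, gene22826, was lower at an unadjusted p under 0.05. The median log2 fold change of the 13 members was -0.60 for Akibae against Nijisseiki, 0.03 for Akibae against SuCui NO.1, 1.03 for Akibae against CuiYu, 0.63 for Nijisseiki against SuCui NO.1, 1.48 for Nijisseiki against CuiYu and 0.84 for SuCui NO.1 against CuiYu. Over all genes tested the same medians lay between -0.03 and 0.06. The 3 comparisons with CuiYu share its libraries. Their counts depend on single libraries: Nijisseiki over CuiYu gave 1 to 6 members, SuCui NO.1 over CuiYu 1 to 4 and Akibae over CuiYu 0 to 2 when libraries were left out in turn. Calls over all genes moved as well in these fits. They ran from 1016 to 2420, 1086 to 3018 and 990 to 2331 in the same order, in place of 2112, 2330 and 1840. DESeq2 called 8, 3 and 1 members (against 12.5%, 13.2% and 10.8% of all genes). DESeq2 also called 2 lower in SuCui NO.1 than in CuiYu (12.6% of all genes).

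**Figure D2:**
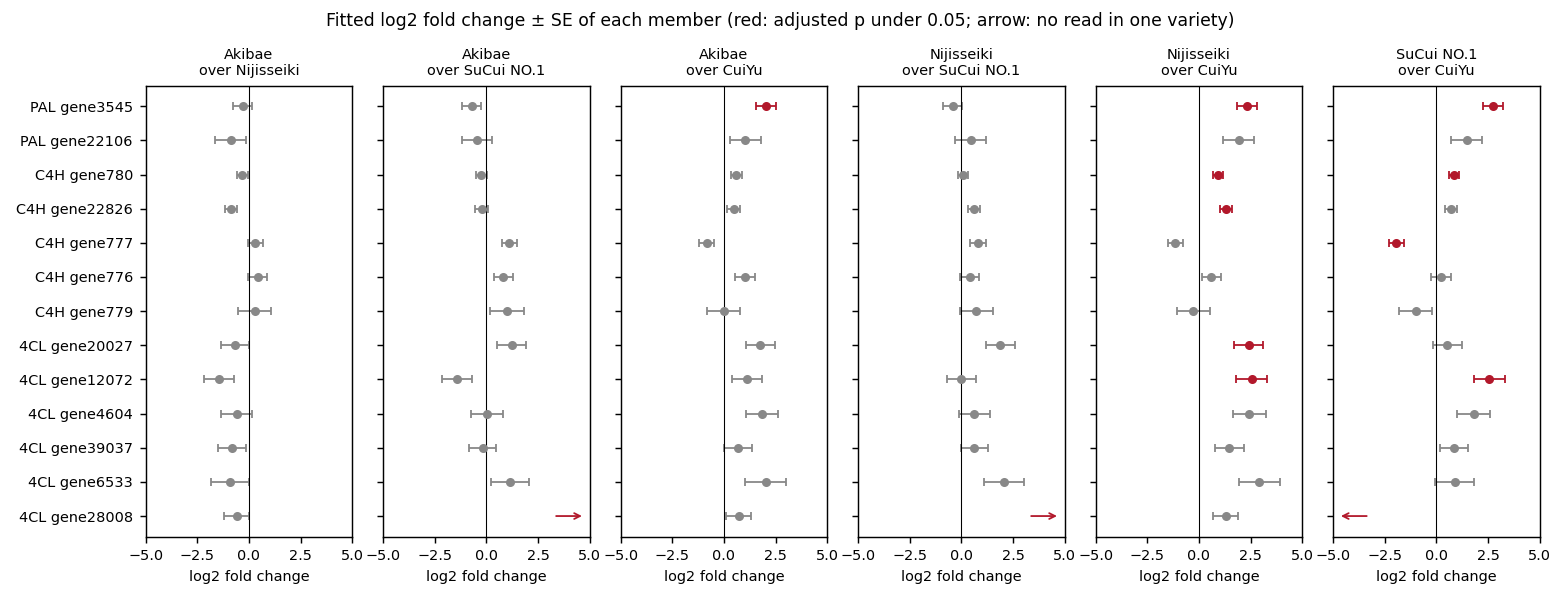
Fitted log2 fold change ± SE (horizontal axis) of the 13 tested members in the 6 pairs of varieties, with the variety named first in each heading on top of the fold. Red points passed an adjusted p of 0.05, and arrows mark gene28008, which had no read in SuCui NO.1. All red points but that of gene777 in the last panel lie to the right of 0, and the arrow in that panel points left.

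PAL is the entry enzyme, and 2 of its 3 genes were read. Both carry the name phenylalanine ammonia-lyase 1 and share 1 Swiss-Prot entry as their best hit. Gene3545 lies on chromosome 12 from 12671707 to 12674558 and gene22106 on chromosome 4 from 12689469 to 12692701. Coordinates are those of the deposited table, and the genome build behind them is not named in its header or the labels. Gene3545 had 94.1, 121.5 and 75.2 CPM in Akibae, 174, 83.0 and 98.7 CPM in Nijisseiki, 222.8, 50.1 and 201.2 CPM in SuCui NO.1 skin, and 25.1, 23.7 and 22.8 CPM in CuiYu. The CuiYu libraries lay close together and below every other library, while SuCui NO.1 replicate 2 lay far under the other two. The level was higher in SuCui NO.1 than in CuiYu by a log2 fold change of 2.73 ± 0.49 (SE, adjusted p = 0.00436), in Nijisseiki by 2.31 ± 0.48 (0.00976) and in Akibae by 2.02 ± 0.48 (0.0167). The SuCui NO.1 and Nijisseiki calls held without any 1 library. The Akibae call ended without Akibae replicate 2 (log2 fold change 1.83, adjusted p = 0.0591) or without CuiYu replicate 1, 2 or 3 (adjusted p = 0.0593, 0.0646 and 0.0598). Akibae, Nijisseiki and SuCui NO.1 gave no call against each other in this gene (adjusted p = 0.339 to 0.854), but without SuCui NO.1 replicate 2 Akibae was called lower than SuCui NO.1 (log2 fold change -1.14, adjusted p = 0.0322).

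The other PAL copy varied widely inside each variety. Gene22106 had 68.5, 66.4 and 19.4 CPM in Akibae, 30.9, 97.3 and 156.6 CPM in Nijisseiki, 39.3, 34.0 and 136.7 CPM in SuCui NO.1 skin, and 12.2, 19.9 and 43.4 CPM in CuiYu. All 4 varieties overlapped, and no pair passed (adjusted p = 0.114 for Nijisseiki against CuiYu, the lowest), though DESeq2 called that pair (0.04). The unread gene16842 (chromosome 3, 16960912 to 16967879) has a different best hit, a protein named phenylalanine ammonia-lyase. Per kb, gene3545 held the larger part of PAL in 9 of 12 libraries and gene22106 in the other 3, which were Nijisseiki replicates 2 and 3 and CuiYu replicate 3. The share of gene3545 ranged from 34.3% in CuiYu replicate 3 to 84.95% in SuCui NO.1 replicate 1, with a mean of 60.9 ± 16.6% (SD, n = 12 libraries).

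C4H had the highest summed transcript level of the 3 families in every library, and enzyme amounts were not measured. Its summed level was 534.5 ± 77.7 CPM per kb in Akibae, 710.4 ± 110.9 in Nijisseiki skin, 621.4 ± 99.8 in SuCui NO.1 skin and 367.9 ± 74.5 in CuiYu (SD, n = 3 each). PAL summed to 60.98 ± 19.8 CPM per kb in Akibae, 87.8 ± 15.7 in Nijisseiki skin, 93.7 ± 53.5 in SuCui NO.1 skin and 20.2 ± 6.25 in CuiYu. 4CL summed to 39.4 ± 10.9 CPM per kb in Akibae, 69.4 ± 38.7 in Nijisseiki skin, 38.1 ± 27.0 in SuCui NO.1 skin and 14.4 ± 5.01 in CuiYu. PAL sums of the other 3 varieties (34.6 to 138.9 CPM per kb) did not overlap those of CuiYu (15.3 to 27.2), nor did their C4H sums (481.3 to 828.6) overlap those of CuiYu (321.2 to 453.8). The 4CL sums overlapped between SuCui NO.1 (16.7 to 68.5) and CuiYu (8.65 to 17.5).

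**Figure D3:**
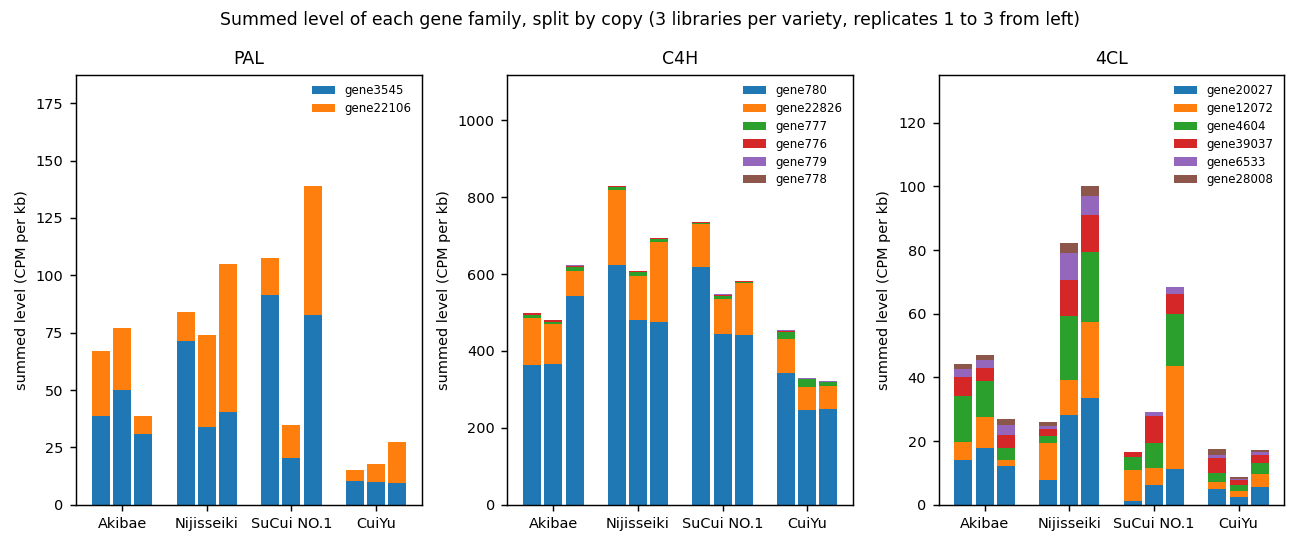
Summed level in CPM per kb (vertical axes, from 0, each with its own scale) of PAL, C4H and 4CL in the 12 libraries, with 3 bars per variety and colours for the gene copies. Gene780 makes up most of every C4H bar, whereas PAL and 4CL bars are shared by several copies in proportions that differ between libraries.

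A single copy, gene780, held 68.3% to 87.1% of C4H per kb in every library. At 432.9 CPM per kb on average it stood above 99.6% of all genes tested. It had 652.3, 660.1 and 977.2 CPM in Akibae, 1122, 863.9 and 852.2 CPM in Nijisseiki, 1113, 798.5 and 793.7 CPM in SuCui NO.1 skin, and 616.9, 441.7 and 448.3 CPM in CuiYu. All CuiYu libraries lay under all the others. Nijisseiki exceeded CuiYu by a log2 fold change of 0.91 ± 0.25 (SE, adjusted p = 0.0329) and SuCui NO.1 exceeded it by 0.84 ± 0.25 (0.0417), but Akibae against CuiYu did not pass (0.60 ± 0.25, adjusted p = 0.135). The Nijisseiki call ended without any 1 of its own 3 libraries or of CuiYu replicates 2 and 3 (adjusted p = 0.056 to 0.126). The SuCui NO.1 call ended in 8 of the 12 leave-outs (0.0524 to 0.146), namely without Akibae replicate 1 or 2, Nijisseiki replicate 2 or 3, SuCui NO.1 replicate 1 or any CuiYu library. It also ended without the filter on low counts (0.0519) and with the 6 libraries of the pair alone (0.0767).

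The second C4H gene in level, gene22826 (chromosome 11, 3138436 to 3142967), stood at 112.95 CPM per kb on average. It had 239, 200.7 and 126.7 CPM in Akibae, 383.6, 226.5 and 411 CPM in Nijisseiki, 219.3, 181.2 and 266 CPM in SuCui NO.1 skin, and 172.9, 120.6 and 115.9 CPM in CuiYu. Nijisseiki and SuCui NO.1 did not overlap CuiYu, and Akibae did. Nijisseiki exceeded CuiYu by 1.32 ± 0.30 (SE, adjusted p = 0.0148), a call that ended without Nijisseiki replicate 3 (0.0508) or CuiYu replicate 2 (0.0637) or 3 (0.0599). SuCui NO.1 against CuiYu gave 0.70 ± 0.30 (adjusted p = 0.127) and Akibae against Nijisseiki -0.85 ± 0.30 (0.205), neither past the threshold.

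The other 5 C4H genes, gene780 included, form an array on chromosome 3 from 24881360 to 24918047, a span of 36688 bases in which the table lists no gene but these 5. Gene780, gene779, gene777 and gene776 lie on the plus strand and gene778 on the minus strand. Gene778 and the end of gene779 overlap by 522 bases, and as the strand setting of the counting is not given, reads of that pair cannot be told apart there. Gene779 stretches from 24889584 to 24907114 for a gene model of 1648 bases, and gene776 and gene778 are the shortest of the 6 models, at 1091 and 656 bases. Levels in the array differed by copy, as means of 12 libraries: 432.9 CPM per kb for gene780, 9.10 for gene777, 2.30 for gene776, 1.25 for gene779 and 0.0487 for gene778. Reads shared between near-identical copies could be split or dropped by the counting, so the level of a single low copy beside gene780 is uncertain.

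Gene777 (24909647 to 24913394) was the only tested C4H copy past the threshold in the direction opposite to gene780. It had 14.7, 11.6 and 18.1 CPM in Akibae, 9.13, 14.8 and 11.8 CPM in Nijisseiki, 4.94, 10.5 and 5.09 CPM in SuCui NO.1 skin, and 31.8, 30.9 and 16.1 CPM in CuiYu. SuCui NO.1 and CuiYu did not overlap, and SuCui NO.1 was lower than CuiYu (log2 fold change -1.94 ± 0.37, SE, adjusted p = 0.00602). That call held without any 1 library, at adjusted p = 0.00289 to 0.0266. Nijisseiki against CuiYu (-1.14 ± 0.36, adjusted p = 0.0579) and Akibae against SuCui NO.1 (1.11 ± 0.37, adjusted p = 0.0632) lay just outside the threshold, although neither pair overlapped. Akibae and CuiYu overlapped and gave no call (-0.83 ± 0.36, adjusted p = 0.153). In DESeq2, and in edgeR without CuiYu replicate 3 or SuCui NO.1 replicate 2, gene777 was also called lower in Nijisseiki than in CuiYu (adjusted p = 0.0179, 0.0378 and 0.0328). Without SuCui NO.1 replicate 2 it was called higher than SuCui NO.1 in Akibae (0.0179) and in Nijisseiki (0.0456), and DESeq2 called it higher in Akibae (0.0255). As a share of C4H per kb, gene777 made up 1.80%, 1.46% and 1.77% in Akibae, 0.671%, 1.48% and 1.04% in Nijisseiki, 0.409%, 1.17% and 0.533% in SuCui NO.1 skin, and 4.27%, 5.72% and 3.05% in CuiYu. The CuiYu shares lay above all others.

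**Figure D4:**
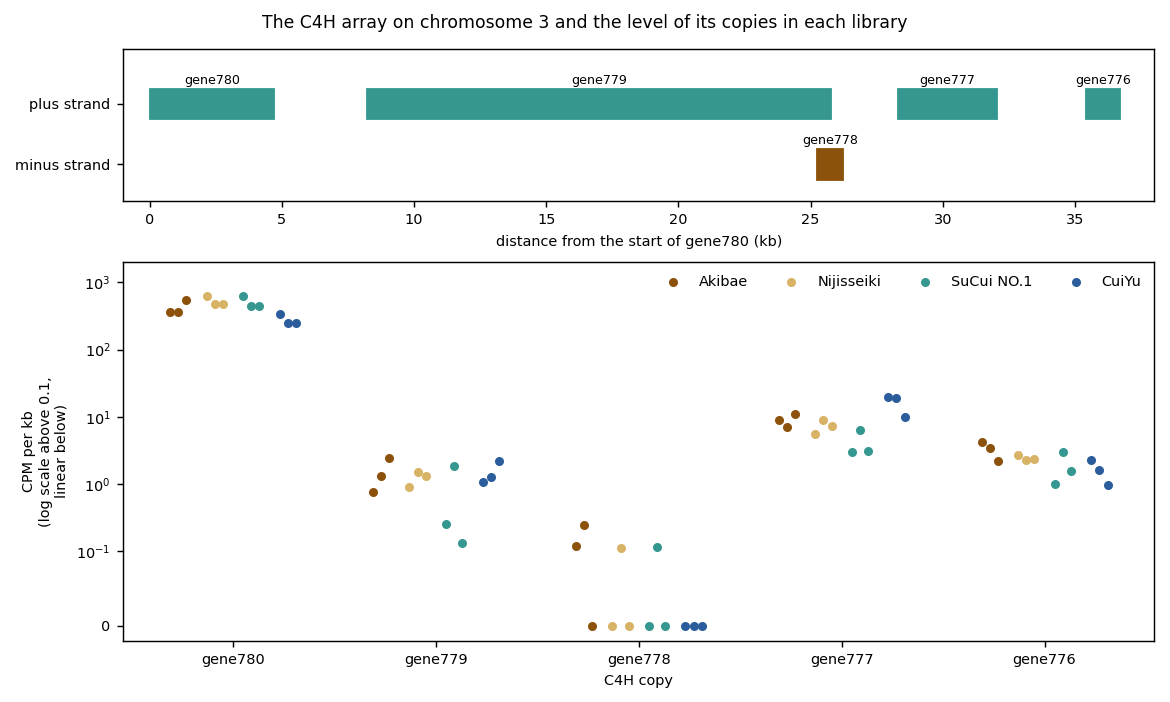
Top, the 5 C4H gene models of the chromosome 3 array by strand, with distance from the start of gene780 in kb on the horizontal axis. Bottom, level of each copy in CPM per kb (log scale above 0.1, linear below) in the 12 libraries, where gene780 lies above all other copies and gene777 is highest in CuiYu replicates 1 and 2.

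The remaining C4H copies were low. Gene776 ranged from 1.03 to 4.62 CPM and gene779 from 0.215 to 4.05 CPM over the 12 libraries, and neither passed in any pair of varieties with all libraries. Without SuCui NO.1 replicate 2, which held 41 of the 49 reads of gene779 in that variety, gene779 was called higher than SuCui NO.1 in Akibae (log2 fold change 2.94, adjusted p = 0.0196) and in Nijisseiki (2.67, 0.0331), and lower in SuCui NO.1 than in CuiYu (-2.94, 0.0177).

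The 6 genes of 4CL fall into 3 pairs that share a Swiss-Prot entry as best hit. Gene20027 (chromosome 2, 13663995 to 13669649) and gene6533 (chromosome 17, 1704334 to 1709878) are both named 4-coumarate--CoA ligase 1. Gene12072 (chromosome 7, 22904845 to 22910007) pairs with gene4604 (chromosome 1, 1233981 to 1238362), and gene28008 (chromosome 5, 6063681 to 6070360) pairs with gene39037, which lies on a sequence outside the numbered chromosomes. These 4 are named 4-coumarate--CoA ligase 2, from 2 different entries. Averaged over the 12 libraries, the levels were 12.1 CPM per kb for gene20027, 9.93 for gene12072, 9.15 for gene4604, 5.41 for gene39037, 2.46 for gene6533 and 1.27 for gene28008. No 4CL copy led everywhere: gene20027 was highest per kb in 7 libraries, gene12072 in 3, and gene4604 and gene39037 in 1 each.

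Gene20027 had 26.3, 33.4 and 23.1 CPM in Akibae, 14.4, 53.0 and 62.8 CPM in Nijisseiki, 2.26, 11.9 and 21.4 CPM in SuCui NO.1 skin, and 9.33, 4.67 and 10.6 CPM in CuiYu. Akibae was even across its libraries and lay above all SuCui NO.1 and CuiYu libraries, whereas Nijisseiki replicate 1 lay far below replicates 2 and 3. Nijisseiki exceeded CuiYu by 2.40 ± 0.71 (SE, adjusted p = 0.0444), and no other pair passed. That call ended with the replicate number as a block (0.0621) and in 9 of the 12 leave-outs (0.0555 to 0.153), all but those of Nijisseiki replicate 1 and SuCui NO.1 replicates 1 and 3. Without Nijisseiki replicate 1, Nijisseiki was also called higher than SuCui NO.1 (2.29, adjusted p = 0.0372), as it was by DESeq2 (0.0363). Akibae was called higher than CuiYu without SuCui NO.1 replicate 1 (1.75, adjusted p = 0.0435) and with the 6 libraries of the pair (0.00797).

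Its partner gene6533 was at a lower level, with 4.47, 4.87 and 5.70 CPM in Akibae, 2.09, 15.3 and 10.9 CPM in Nijisseiki, 0.0837, 2.30 and 4.38 CPM in SuCui NO.1 skin, and 1.25, 0.452 and 1.99 CPM in CuiYu. As in gene20027, the Akibae libraries lay close together and above all SuCui NO.1 and CuiYu libraries. No pair passed with all libraries (lowest adjusted p = 0.0712, Nijisseiki against CuiYu, 2.93 ± 0.99 on the log2 scale), but that pair did without Nijisseiki replicate 1 (0.0329) or SuCui NO.1 replicate 1 (0.0213) and by DESeq2 (0.0127). Akibae against CuiYu passed with the 6 libraries of the pair (0.0248).

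Gene12072 had 14.1, 23.6 and 3.98 CPM in Akibae, 28.3, 26.3 and 57.98 CPM in Nijisseiki, 23.1, 12.7 and 77.1 CPM in SuCui NO.1 skin, and 5.15, 4.37 and 9.66 CPM in CuiYu. Nijisseiki and SuCui NO.1 lay above CuiYu without overlap. SuCui NO.1 exceeded CuiYu by a log2 fold change of 2.56 ± 0.76 (SE, adjusted p = 0.0406) and Nijisseiki by 2.55 ± 0.76 (0.0444). Of the SuCui NO.1 excess, replicate 3 carried a large part: without it the log2 fold change was 1.48 (adjusted p = 0.161). The SuCui NO.1 call also ended without Akibae replicate 1 or any CuiYu library (adjusted p from 0.0576), with the replicate block (0.058) and with the 6 libraries of the pair (0.0523). The Nijisseiki call ended without Akibae replicate 1 or any 1 library of either variety (0.0512 to 0.152) and with the replicate block (0.0528).

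Gene4604, its partner, had 32.5, 25.5 and 8.55 CPM in Akibae, 4.61, 46.2 and 49.9 CPM in Nijisseiki, 9.54, 18.1 and 37.3 CPM in SuCui NO.1 skin, and 6.33, 4.59 and 7.67 CPM in CuiYu. Akibae and SuCui NO.1 lay above CuiYu without overlap, but no pair passed with all libraries (Nijisseiki against CuiYu, 2.44 ± 0.80, adjusted p = 0.0648). Without Nijisseiki replicate 1, its lowest library in that variety, gene4604 was called higher than CuiYu in Akibae (1.84, adjusted p = 0.0415), in Nijisseiki (2.96, 0.00887) and in SuCui NO.1 (1.81, 0.0393). DESeq2 called the Nijisseiki pair (0.00931), and the 6 libraries of the pair the Akibae one (0.0297). Gene39037 ranged from 3.39 to 24.5 CPM over the 12 libraries, with a median of 9.58 CPM. No pair passed with all libraries, and Nijisseiki was called higher than CuiYu without Nijisseiki replicate 1 (1.93, adjusted p = 0.0499).

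Gene28008 was the 4CL copy with no counted read in 1 variety. Its reads were 47, 36 and 55 in Akibae (3.62, 2.87 and 4.13 CPM), 29, 92 and 96 in Nijisseiki (2.52, 6.65 and 6.72 CPM), 0, 0 and 0 in SuCui NO.1 skin, and 61, 14 and 16 in CuiYu (4.25, 1.05 and 1.18 CPM). Against a floor of 3 reads over the SuCui NO.1 libraries, the level was at least 46.4-fold higher in Akibae (adjusted p = 0.00145), at least 69.5-fold higher in Nijisseiki (0.00115) and at least 28.3-fold higher in CuiYu (0.0027). The last bound was 14.6-fold without CuiYu replicate 1, which held 61 of its 91 reads. The 3 calls held without any 1 library. Whether the gene is silent in SuCui NO.1 or its reads there could not be counted was not tested. The other 3 varieties gave no call against each other in this gene (adjusted p = 0.193 to 0.751), but without CuiYu replicate 1 Nijisseiki was called higher than CuiYu (2.24, adjusted p = 0.0476). Its partner gene39037 was read in SuCui NO.1, at 3.51, 17.5 and 13.2 CPM.

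The makeup of 4CL differed by library. Gene20027 held 31.6%, 37.9% and 45.7% of 4CL per kb in Akibae, 29.6%, 34.3% and 33.4% in Nijisseiki, 7.19%, 21.7% and 16.6% in SuCui NO.1 skin, and 28.4%, 28.7% and 32.9% in CuiYu. The SuCui NO.1 shares lay below those of all other libraries. Gene12072 held 13.3%, 20.9% and 6.15% in Akibae, 45.3%, 13.3% and 24.1% in Nijisseiki, 57.5%, 18.1% and 46.9% in SuCui NO.1 skin, and 12.3%, 20.99% and 23.4% in CuiYu, and the 4 varieties overlapped. Shares are descriptions and were not tested.

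Libraries of 1 variety also differed from each other across several copies. Of 13 tested members, 8 had their lowest Nijisseiki value in replicate 1 and 7 their highest in replicate 3. In Akibae 7 were lowest in replicate 3, in CuiYu 7 were lowest in replicate 2, and in SuCui NO.1 6 of the 12 with reads were lowest in replicate 1 and 6 highest in replicate 3. Deviations from the variety mean of log2(CPM + 0.5) were correlated over the 12 libraries as a description, with no test, since the libraries share varieties and their depth. Among the 15 pairs of 4CL copies the median r was 0.57, from -0.09 (gene28008 with gene12072) to 0.97 (gene20027 with gene6533), and it was over 0.5 in 8 pairs. The 2 PAL copies had r = 0.12. PAL gene22106 deviated with the 4CL copies gene4604 (r = 0.84) and gene12072 (0.84) and against C4H gene780 (-0.78). PAL gene3545 deviated with C4H gene22826 and 4CL gene12072 (0.52 each) and against C4H gene779 (-0.85) and gene777 (-0.76). Both gene3545 (-1.38) and gene779 (1.42, on 41 reads) had their largest deviation in SuCui NO.1 replicate 2. The r without that library was not computed. Over all 78 pairs, r was over 0.5 in 17 and under -0.5 in 11. These counts and r values were not computed for all genes. Whether they are particular to these members was not tested. Over all genes averaging 1 CPM or more, deviations of Nijisseiki replicate 1 and SuCui NO.1 replicate 1 were correlated at r = 0.40.

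**Figure D5:**
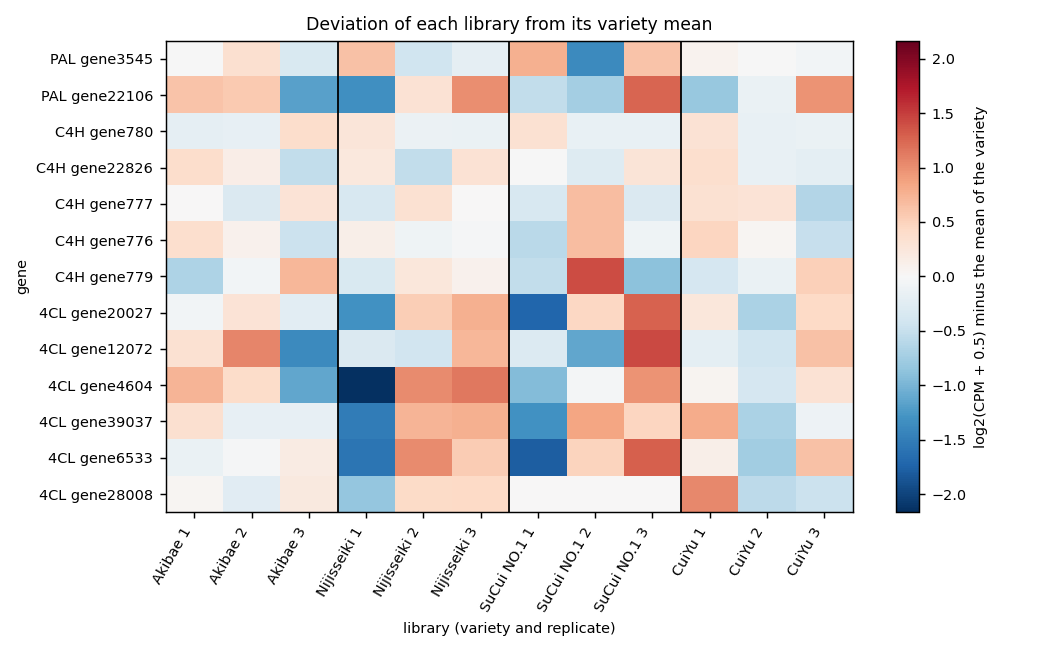
Deviation of each library (columns) from the mean of its variety on the log2(CPM + 0.5) scale, for the 13 tested members (rows), with red above and blue below the mean. Most 4CL rows are blue in Nijisseiki replicate 1 and SuCui NO.1 replicate 1, where PAL gene3545 is red.

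The gene most like each leading copy was sought among the 18491 tested genes that had a Swiss-Prot name and averaged 1 CPM or more, by Pearson r of log2(CPM + 0.5) over the 12 libraries. For the 4CL gene20027 this was another member, gene6533 (r = 0.98, and 0.97 within varieties), followed by gene19974 (serotonin N-acetyltransferase 1, r = 0.94) and gene21361 (a probable aspartyl protease, r = 0.94). Gene3545 was closest to gene28795 (FACT complex subunit SPT16), gene42144 (Nudix hydrolase 26) and gene2619 (a VHS domain-containing protein), each at r = 0.95. Gene780 was closest to gene38766 (an E3 ubiquitin-protein ligase, r = 0.94), gene4799 (a probable inactive receptor kinase, r = 0.94) and gene31925 (probable acyl-activating enzyme 1, r = 0.93). The 12 libraries fall into 4 varieties, and r over them holds differences between varieties as well as within.

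Genes around the entry steps were described by lists of names. The only gene named NADPH--cytochrome P450 reductase, gene24312, whose product passes electrons to C4H and other P450 enzymes, went against gene780. It had 148.5, 135.9 and 199 CPM in Akibae, 151.7, 166.8 and 167.6 CPM in Nijisseiki, 140.3, 187.5 and 126.1 CPM in SuCui NO.1 skin, and 290.7, 259.7 and 238.8 CPM in CuiYu. All CuiYu libraries lay above all others. Akibae (-0.71 ± 0.20, SE, adjusted p = 0.0342), Nijisseiki (-0.70 ± 0.20, 0.036) and SuCui NO.1 (-0.80 ± 0.20, 0.0196) were each lower than CuiYu on the log2 scale.

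Upstream, 37 of 45 genes that supply phenylalanine through the shikimate pathway were tested. Of these 6 were higher and 2 lower in SuCui NO.1 than in CuiYu (16.2% and 5.41%, against 8.86% and 8.58% of all genes tested), at a median log2 fold change of 0.23. In Nijisseiki 4 were higher and 1 lower than in CuiYu (10.8% and 2.70%, against 8.03% and 7.37% of all genes), with a median of 0.53. In Akibae 2 were higher and 2 lower than in CuiYu (5.41% each way, against 6.99% and 8.09% of all genes), with a median of 0.32, so the shares called there were below the background. Gene19146, which transfers the amino group that makes arogenate, averaged 8.21 ± 1.20 CPM in Akibae, 14.2 ± 5.21 in Nijisseiki skin, 15.7 ± 8.45 in SuCui NO.1 skin and 2.74 ± 1.19 in CuiYu (SD, n = 3 each). It was higher in Nijisseiki than in CuiYu by a log2 fold change of 2.37 ± 0.47 (SE, adjusted p = 0.00704) and in Akibae by 1.58 ± 0.46 (0.0399). Its SuCui NO.1 libraries (12.9, 8.99 and 25.2 CPM) also lay above those of CuiYu (1.60, 2.63 and 3.98 CPM). The test of that pair is not given here, as only the gene with the largest fold was taken from each pair. Gene34059, a 3-dehydroquinate dehydratase/shikimate dehydrogenase of the middle steps, averaged 49.7 ± 30.7 CPM in SuCui NO.1 and 4.06 ± 0.718 in CuiYu (3.61 ± 0.71, adjusted p = 0.00646). It was 3.77 ± 2.09 CPM in Akibae, lower than in SuCui NO.1 (-3.72 ± 0.71, adjusted p = 0.00547). Gene26813 (3-phosphoshikimate 1-carboxyvinyltransferase) was opposite, at 1.48 ± 1.06 CPM in Akibae, 0.597 ± 0.460 in Nijisseiki skin, 1 read in SuCui NO.1 and 8.18 ± 1.87 CPM in CuiYu. It was lower than CuiYu in Akibae (log2 fold change -2.46 ± 0.73, SE, adjusted p = 0.0434), in Nijisseiki (-3.73 ± 0.78, 0.00972) and in SuCui NO.1 (0.000964).

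Of the 4 tested F-box/kelch-repeat genes whose relatives mark PAL for breakdown in Arabidopsis, 1 passed in 1 pair, being lower in Nijisseiki than in SuCui NO.1, as were 5.76% of all genes. Over the 4 varieties edgeR called 1 of the 4 (28.3% of all genes) and DESeq2 2 of the 4 (42.3%). Gene29065 averaged 2.13 ± 0.361 CPM in Nijisseiki and 10.8 ± 6.51 in SuCui NO.1 (log2 fold change -2.34 ± 0.56, adjusted p = 0.0196). Downstream, 56 of 91 genes of the monolignol branch were tested, and 21 differed among the varieties (37.5%, against 28.3% of all genes tested). In Nijisseiki 9 were higher and 4 lower than in CuiYu (16.1% and 7.14%, against 8.03% and 7.37% of all genes), at a median log2 fold change of 0.48. In SuCui NO.1 5 were higher and 4 lower than in CuiYu (8.93% and 7.14%, against 8.86% and 8.58%), with a median of 0.32, and in Akibae 5 and 6 (8.93% and 10.7%, against 6.99% and 8.09%), with a median of 0.23. In Akibae 7 were higher and 7 lower than in SuCui NO.1 (12.5% each way, against 7.62% and 8.66%), with a median of -0.07. The single monolignol gene that passed in Akibae against Nijisseiki (1.79% lower, against 1.57% of all genes) was gene6507, a shikimate O-hydroxycinnamoyltransferase, the step after 4CL toward lignin. It had 17.8, 15.8 and 16.3 CPM in Akibae against 57.6, 44.7 and 33.8 CPM in Nijisseiki, and was lower in Akibae (log2 fold change -1.45 ± 0.24, SE, adjusted p = 0.0103). It averaged 46.7 ± 9.12 CPM in SuCui NO.1 and 48.4 ± 11.0 in CuiYu. Gene31267, a cytochrome P450 84A1, the family that hydroxylates the ring on the way to syringyl lignin, had 84 reads in Akibae (2.15 ± 1.69 CPM), 207 in Nijisseiki (5.03 ± 2.56 CPM) and 0 in SuCui NO.1 and in CuiYu. It was called higher in Akibae than in SuCui NO.1 (adjusted p = 0.0123) and CuiYu (0.0122), and in Nijisseiki than in both (0.00778 and 0.00709). Gene16474, a caffeic acid 3-O-methyltransferase 1, averaged 0.0766 ± 0.0751 CPM in Akibae, 0.290 ± 0.502 in Nijisseiki skin, 11.3 ± 9.75 in SuCui NO.1 skin and 0.395 ± 0.284 in CuiYu. It was lower in Akibae (adjusted p = 0.00847) and Nijisseiki (0.0204) than in SuCui NO.1, and higher in SuCui NO.1 than in CuiYu (0.0224). The largest falls against CuiYu were of the caffeoylshikimate esterase gene39887 in Akibae (3 reads against 90), of the methyltransferase gene33253 in Nijisseiki (6 against 107) and of the esterase gene28915 in SuCui NO.1 (0 against 16), at adjusted p = 0.0129, 0.0261 and 0.00555.

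In the flavonoid branch 9 of 11 genes were tested and 1 differed among the varieties (11.1%, against 28.3% of all genes tested), while 2 did so at an unadjusted p under 0.05 and DESeq2 called 3 (42.3% of all genes). Gene30123, named flavonoid 3'-monooxygenase, which hydroxylates the flavonoid ring, had 19.6, 11.1 and 1.28 CPM in Akibae, 2.44, 23.8 and 30.5 CPM in Nijisseiki, 0, 2.45 and 1.29 CPM in SuCui NO.1 skin, and 0, 0.376 and 0 CPM in CuiYu. It was called higher than CuiYu in Akibae (adjusted p = 0.0269) and in Nijisseiki (0.0174), over 5 CuiYu reads. Gene9204, a chalcone--flavonone isomerase, which closes the flavonoid ring, was higher in Nijisseiki (1.33 ± 1.14 CPM) than in SuCui NO.1 (0.0974 ± 0.0844 CPM, adjusted p = 0.049). The median log2 fold change of the 9 genes was 1.23 for Akibae against CuiYu, 1.67 for Nijisseiki against CuiYu and 1.10 for SuCui NO.1 against CuiYu.

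The 16 genes named 4-coumarate--CoA ligase-like had a summed level of 282.4 ± 17.5 CPM per kb in Akibae, 264.7 ± 53.8 in Nijisseiki skin, 412.7 ± 129.8 in SuCui NO.1 skin and 254.7 ± 23.3 in CuiYu (SD, n = 3 each). Of the 9 tested, 1 was lower and 0 higher in each of Akibae, Nijisseiki and SuCui NO.1 than in CuiYu by edgeR. Of all genes, 8.09%, 7.37% and 8.58% were lower in these comparisons and 6.99%, 8.03% and 8.86% higher, so the counts of this list were near the background. At an unadjusted p under 0.05, 3, 2 and 3 were higher in those comparisons, and DESeq2 called 2, 0 and 2 higher. Gene29608 was the lower one in Akibae (3.68 ± 1.16 CPM) and Nijisseiki (2.91 ± 0.778) against CuiYu (13.0 ± 3.68), and gene10756 in SuCui NO.1 (14.9 ± 11.0) against CuiYu (43.4 ± 4.33). Against SuCui NO.1, gene6291 was the largest rise in Akibae (44 reads against 1, adjusted p = 0.00837) and gene10756 in Nijisseiki (60.2 ± 11.7 CPM, adjusted p = 0.0211), while gene29608 was lower in Akibae (0.00111) and in Nijisseiki (0.000758) than in SuCui NO.1 (30.2 ± 16.2 CPM).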

How the data were processed

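The authors deposited 1 table of 43732 genes with positions, gene lengths, Swiss-Prot hits, raw read counts and FPKM values. The deposited counts are raw and whole, per the file headers. The deposited FPKM values match division by gene length and by a library total 0.9198 to 1.1055 times the sum of counts, judged from the values. They were used only to recompute family shares. As the library total cancels in a share, this is no independent check. No label or header names an aligner, counting tool, strand setting or genome build. Per the labels, skin was taken in 3 biological replicates per variety. No count columns were identical, and 0 columns lacked a sample.

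Testing used edgeR 4.0.16 (R 4.3.3): filterByExpr by variety (17425 genes not tested), TMM scaling, 1 quasi-likelihood fit to all 12 libraries, an F test over the 4 varieties and 6 pairwise contrasts. Adjusted p values are Benjamini-Hochberg over all 26307 tested genes (threshold 0.05). SE is the log2 fold change over the root of F. Libraries held 11981445 to 15136559 counts. Alternatives were DESeq2 1.42.0 and its size factors, other filters, the replicate number as a block, the 6 libraries of a pair and each library left out. CPM per kb divides TMM-scaled CPM by the deposited gene length. Members averaging 1 CPM or more were named, and in each list of pathway names the genes with the largest fold past the threshold. Members and lists were chosen with earlier results of these data known. Sequences were not analysed here.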

Additional observations from a re-analysis of the deposited data

How the results depend on the processing

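Counts of members called depended on the tool and on single libraries. DESeq2 called 8 members among the 4 varieties in place of 4, and 42.3% of all genes in place of 28.3%. It called 2 higher in Akibae than in SuCui NO.1 in place of 1, 2 higher in Nijisseiki than in SuCui NO.1 in place of 1, and 8 higher and 1 lower in Nijisseiki than in CuiYu in place of 5 and 0. With the 6 libraries of the pair alone, 4 members were higher in Akibae than in CuiYu in place of 1 and 1 was higher in SuCui NO.1 in place of 3. Leaving out each library in turn gave 2 to 6 members among the varieties. Over all genes the same fits called 4885 to 8921 in place of 7444, so calls of all genes also depended on single libraries. Of the members, the leave-outs gave 1 to 3 higher and 0 to 1 lower in Akibae than in SuCui NO.1, 0 to 2 higher in Akibae than in CuiYu, 1 to 3 higher in Nijisseiki than in SuCui NO.1, 1 to 6 higher and 0 to 1 lower in Nijisseiki than in CuiYu, and 1 to 4 higher and 2 to 3 lower in SuCui NO.1 than in CuiYu. For Nijisseiki higher than CuiYu, calls over all genes ran from 1016 to 2420 in place of 2112. The cause was not tested. No called fold change changed sign under any setting run. The 3 mean family shares were rerun only with each library left out and with the deposited FPKM values. Leaving out 1 of 12 libraries can move such a mean only a little. FPKM gives the same shares, since the library total cancels within a library. Neither rerun could therefore test the shares. With the replicate number as a block, 3 members were higher in Nijisseiki than in CuiYu in place of 5. Nothing in the labels says that a number marks a shared batch. Same-numbered libraries of different varieties had correlations of deviations of -0.25 to 0.40, over 0.1 in 6 of 18 pairs. For libraries with different numbers these were -0.335 to 0.27, over 0.1 in 5 of 36 pairs. In all, 6 of 12 libraries correlated best with their own number. Over all genes, DESeq2 called 1650 in Akibae against Nijisseiki in place of 665, and the pair-only fits 183 there, 6468 in place of 3968 in Akibae against CuiYu and 1186 in place of 3270 in Nijisseiki against SuCui NO.1. DESeq2 also called 5076 in place of 3270 in Nijisseiki against SuCui NO.1 and 6209 in place of 4050 in Nijisseiki against CuiYu.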
